A study of Homo sapiens with 72 samples.

Results

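The 36 genes described here encode membrane proteins of the lysosome and subunits of its proton pump. They comprise 20 lysosomal membrane proteins and 16 genes of the vacuolar H+-ATPase, or V-ATPase. They were chosen by name for their place in the lysosome, with no threshold on a measured value. All 36 were found among the 56297 genes with a matched transcript, and all 36 were among the 20134 genes that passed the filter on low counts. RNA was sequenced from PEO1, a single human high-grade serous ovarian cancer cell line, exposed for 2 h or 24 h to 8.5 µM rucaparib, an inhibitor of the DNA repair enzyme PARP, or to its solvent. The groups were Vehicle (cells given DMSO), Ruc_Total (treated cells that were not sorted), Ruc_Low (treated cells sorted from the lowest 20% of drug fluorescence) and Ruc_High (treated cells sorted from the highest 20%). The study's methods describe such gates as set among rucaparib-positive cells. Each of these 4 groups was sampled at both times with 3 replicates, and each replicate was the sum of 3 libraries, which gave 24 summed samples from 72 libraries. Vehicle and Ruc_Total cells were scraped directly into lysis buffer, whereas Ruc_Low and Ruc_High cells were detached with an enzyme and passed through a cell sorter. The comparison of sorted with unsorted cells therefore also compares these handling steps, and the effects cannot be told apart.

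Lysosomes digest macromolecules in an acidic lumen, and the acid is supplied by the V-ATPase. In this pump the cytosolic V1 sector hydrolyses ATP and turns a rotor in the membrane-embedded V0 sector, which carries protons into the lumen. Glycoproteins such as LAMP1 and LAMP2 line the membrane, transporters export the products of digestion, and channels balance the charge carried by the protons. Weakly basic compounds become protonated in an acidic lumen and can accumulate there. The transcription factors TFEB and TFE3 switch on many lysosomal genes by binding a short promoter element that contains the letters TCACGTGA.

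Promoter windows from RefSeq (GRCh38.p14) were matched by symbol for 29 of the 36 genes, which had 44 windows, since a gene can have several start sites. The letters TCACGTGA were searched in the 250 bases before each start. This motif reads the same on both strands, so a single search covers both, and it contains the shorter motif CACGTG. It was found in 4 of the 44 windows (9.09%) and in 300 of 35116 windows of all genes (0.854%). CACGTG was found in 9 of the 44 windows (20.5%), which belonged to 8 genes, and in 2228 of all windows (6.34%). The 4 genes with TCACGTGA were LAMP1, MCOLN1, ATP6V0D1 and ATP6V1G1. The stretches below, all on the + strand, are shown because they are the places where genes of the list carry the letters of this element. The capitals mark TCACGTGA. ATP6V0D1 is not printed because its window overlaps an annotated first exon.
LAMP1, chr13:113297170-113297238: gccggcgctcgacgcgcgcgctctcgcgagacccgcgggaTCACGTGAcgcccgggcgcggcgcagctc
MCOLN1, chr19:7522542-7522623: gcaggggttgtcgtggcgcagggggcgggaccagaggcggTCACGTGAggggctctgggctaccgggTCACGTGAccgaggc
ATP6V1G1, chr9:114587670-114587745: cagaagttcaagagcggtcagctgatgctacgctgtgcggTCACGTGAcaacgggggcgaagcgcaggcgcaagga
Distances were counted to the RefSeq start site of each window, which for LAMP1 is not the GENCODE gene start given further on. The site in LAMP1 lay 29 to 22 bases before that start and the one in ATP6V1G1 lay 59 to 52 bases before it. MCOLN1 held 2 sites, of which the first began 42 bases and the last ended 8 bases before the start. A match is a description of the letters and does not show that a factor binds there.

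The libraries held 17391033 to 38899905 reads each, and 7.10% to 8.95% of the reads lay on transcripts with no gene match. Transcripts of PAX8, a marker of this tumour type, were present at 33.7 to 87.4 TPM, a level corrected for transcript length and library size, whereas SOX17, another, did not exceed 0.0128 TPM. The leukocyte gene PTPRC did not exceed 0.23 TPM and the endothelial gene PECAM1 did not exceed 0.122 TPM. Of the markers of other cell types, 1 of 5 for leukocytes (CD14, 1.69 to 3.33 TPM), 1 of 4 for endothelium (CDH5, 1.71 to 5.15 TPM) and 1 of 5 for fibroblasts (COL1A1, 1.01 to 6.13 TPM) exceeded 1 TPM in any sample. The mean length of the transcripts that the reads came from ranged from 2255 to 3299 bases between libraries, and its values are given beside the results it moves with. In these bulk samples, fewer cells expressing a gene and less RNA of that gene per cell cannot be told apart.

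On the length-corrected TPM scale the 36 genes covered a wide range of levels. Among the membrane proteins, the median over the 24 samples was highest for CD63, a tetraspanin (1192 TPM), followed by LAPTM4B (375 TPM) and LAPTM4A (249 TPM), small membrane proteins of late endosomes and lysosomes. LAMP1, a major glycoprotein of the membrane, had a median of 158 TPM and LAMP2, its relative, 50.2 TPM. The cystine exporter CTNS (1.92 TPM) and the sialic acid exporter SLC17A5 (2.56 TPM) had the lowest medians among the membrane proteins. The V-ATPase genes with the highest medians were the V0 subunits ATP6V0B (124 TPM), ATP6V0E1 (122 TPM) and ATP6V0C (117 TPM) and the V1 stalk subunit ATP6V1E1 (113 TPM). These neighbours differed by less than their own spread, since ATP6V0B alone ranged from 104 to 142 TPM. Short transcripts bear on the levels of CD63 and LAMP1. A 230-base CD63 transcript with a retained intron carried 47.9% of the TPM of CD63 but 3.81% of its reads, and a 424-base LAMP1 transcript carried 47.8% of the TPM of LAMP1 but 5.93% of its reads. Changes between groups were therefore measured on read counts, given below as CPM, counts scaled to the same library total.

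LAMP2 is made in splice forms that differ in their last exon. Its main transcript held 77.6% of the reads of LAMP2 over all samples, and its group means lay between 74.0% and 79.9%. For ATP6V0A1, a large membrane-spanning subunit of V0, the main transcript held 56.6% of the reads.

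The first comparison asked whether cells with strong drug fluorescence differed in these RNAs from cells with weak drug fluorescence. No gene of the 36 passed the test at either time, yet most had a fitted value above 0. At 2 h the log2 fold change of Ruc_High over Ruc_Low was above 0 for 35 of 36 genes, with a median of 0.13. At 24 h it was above 0 for 30 of 36, with a median of 0.12. Over all 20134 genes the medians were -0.00 at 2 h and -0.01 at 24 h, and 49.5% and 48.3% of genes lay above 0. These counts describe genes measured in the same samples, which are not independent of each other.

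**Figure D1:**
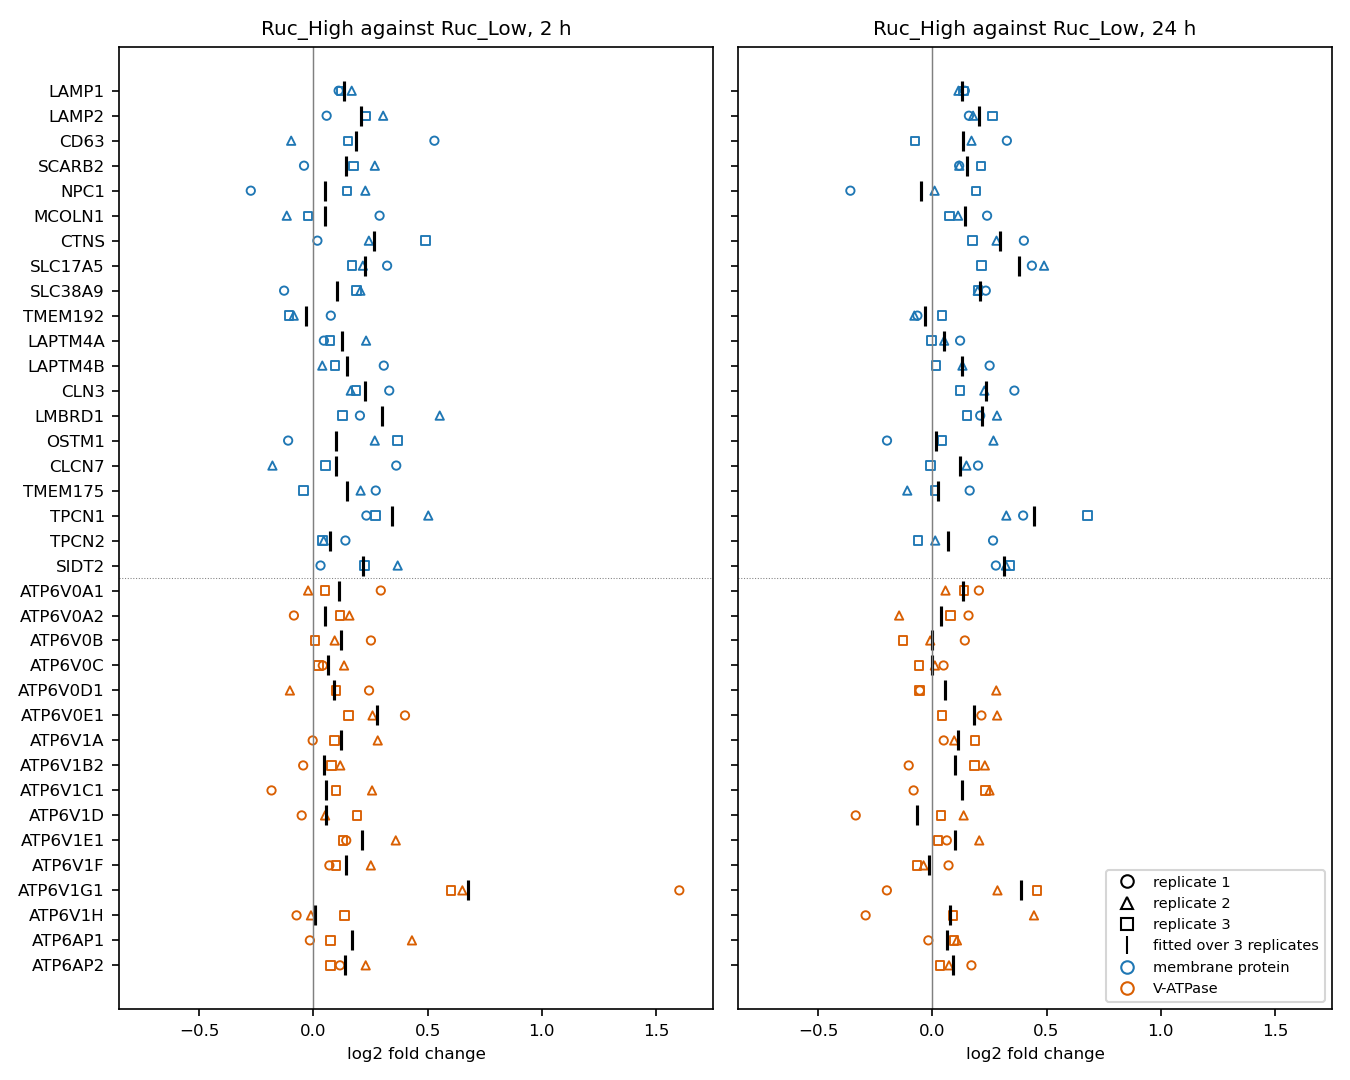
Log2 fold change of Ruc_High over Ruc_Low for each of the 36 genes at 2 h and 24 h. Circles, triangles and squares are replicates 1, 2 and 3, the vertical black bar is the fitted value over them, and colour separates membrane proteins from V-ATPase genes. At 2 h 35 fitted values lie above 0, and at 24 h 30 do.

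Called genes were those with a Benjamini-Hochberg adjusted p under 0.05 in edgeR's quasi-likelihood test, fitted over all genes with the groups as the only terms. By this rule 0 of the 36 were called at 2 h, where 0.00497% of all genes were called, and 0 at 24 h, where 0.109% were. Unadjusted p-values under 0.05 were found for 4 members at 2 h and 3 at 24 h, and DESeq2 also called 0 at both times. With the replicate number added as a block the count stayed at 0, against 0.377% of all genes at 2 h and 0.611% at 24 h. The same replicate number was higher in Ruc_High in all 3 pairs for 18 members at 2 h, against 15.5% of all genes, and for 17 members at 24 h, against 18.2%. All Ruc_High samples lay above all Ruc_Low samples for 5 members at 2 h, against 3.8% of all genes, and for 7 members at 24 h, against 5.23%.

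Among the glycoproteins, LAMP1 (chromosome 13, 113297241 to 113323672) had 225, 262 and 300 CPM in Ruc_Low at 2 h and 243, 295 and 326 CPM in Ruc_High. At 24 h the values were 218, 234 and 284 CPM in Ruc_Low and 241, 253 and 312 CPM in Ruc_High. Ruc_High was higher within each replicate number at both times, but the groups overlapped because the replicates differed from each other by more than the groups did. The log2 fold changes were 0.13 (SE 0.15) at both times, with edgeR adjusted p = 1. LAMP2 was also higher within all 3 replicate numbers each time, and its log2 fold change was 0.21 at both times (SE 0.22 and 0.21). The tetraspanin CD63 and SCARB2, the receptor that carries glucocerebrosidase to lysosomes, were higher in 2 of 3 pairs at 2 h. Of the reads of SCARB2, 43.8% lay on a transcript annotated as a target of nonsense-mediated decay.

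Apart from ATP6V1G1, which is described last, the transporters and channels gave the largest values. TPCN1, a cation channel of endolysosomes (chromosome 12, 113221050 to 113298585), had 24.1, 26.2 and 26.9 CPM in Ruc_Low at 2 h and 28.3, 37.1 and 32.4 CPM in Ruc_High. At 24 h it had 26.1, 32.3 and 19.1 CPM in Ruc_Low and 34.3, 40.4 and 30.6 CPM in Ruc_High. The groups did not overlap at 2 h, whereas at 24 h the highest Ruc_Low sample exceeded the lowest Ruc_High sample. The log2 fold changes were 0.34 (SE 0.15) and 0.44 (SE 0.15), and the 24 h value had an adjusted p of 0.695 in edgeR, the lowest of any member in this comparison.

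CLN3, a lysosomal membrane protein whose loss causes juvenile Batten disease (chromosome 16, 28474111 to 28495575), had 24.3, 26.6 and 24.0 CPM in Ruc_Low and 30.6, 29.8 and 27.4 CPM in Ruc_High at 2 h. At 24 h it had 19.9, 20.9 and 21.7 CPM in Ruc_Low and 25.6, 24.4 and 23.6 CPM in Ruc_High. The Ruc_High samples all lay above the Ruc_Low samples at both times. Its log2 fold changes were 0.23 (SE 0.08) and 0.24 (SE 0.08), with adjusted p of 1 and 0.858 in edgeR. LMBRD1, needed for the export of vitamin B12 from lysosomes, had 11.6, 11.2 and 12.7 CPM in Ruc_Low and 13.4, 16.5 and 13.9 CPM in Ruc_High at 2 h. At 24 h it had 11.2, 12.8 and 12.2 CPM in Ruc_Low and 12.9, 15.5 and 13.5 CPM in Ruc_High, again without overlap. SLC17A5 had 4.90, 6.95 and 6.85 CPM in Ruc_Low and 6.62, 9.75 and 7.96 CPM in Ruc_High at 24 h. Its groups overlapped because replicate 1 was low in both, and its log2 fold change was 0.38 (SE 0.18).

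Among the other transporters and channels, the 2 h and 24 h values of CTNS were 0.27 and 0.29 on the log2 scale. SIDT2, a transmembrane protein linked to nucleic acid uptake by lysosomes, had 0.22 and 0.31. MCOLN1, the calcium channel of lysosomes, had 0.05 and 0.14, and TMEM175, a potassium and proton channel, had 0.15 and 0.03. OSTM1 and CLCN7, which together form the chloride-proton exchanger, had values between 0.02 and 0.12 with standard errors of 0.27 to 0.45. Both were high in replicate 1 of several groups. Of the reads of OSTM1, 70.2% lay on a transcript annotated as processed rather than protein-coding. A 724-base protein-coding transcript held 12.7% of them. The cholesterol transporter NPC1 had 0.05 at 2 h and -0.05 at 24 h. TMEM192 was the only member below 0 at both times, with -0.03 each.

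All 16 V-ATPase genes had a fitted value above 0 at 2 h, with a median of 0.11, and 12 of 16 did at 24 h, with a median of 0.08. A library of replicate 2 of Ruc_Low at 2 h stood apart with a low V-ATPase sum. Without it and another shallow library the 2 h median was 0.07 with 15 of 16 above 0, and without replicate 2 it was 0.05 with 12 of 16 above 0. ATP6V0E1, a small V0 subunit, had 70.3, 71.9 and 63.7 CPM in Ruc_Low and 92.8, 86.1 and 70.8 CPM in Ruc_High at 2 h, where the ranges overlapped slightly. At 24 h it had 61.8, 67.5 and 66.9 CPM in Ruc_Low and 71.7, 82.1 and 68.9 CPM in Ruc_High, with no overlap. Its log2 fold changes were 0.28 (SE 0.12) and 0.18 (SE 0.12). ATP6V1E1 did not overlap at either time, with log2 fold changes of 0.21 (SE 0.11) and 0.10 (SE 0.11). The catalytic subunit ATP6V1A had 0.12 and 0.11, and the accessory subunit ATP6AP2, also called the prorenin receptor, had 0.14 and 0.09. The V0 ring subunit ATP6V0C had 0.07 and -0.00, and ATP6V1H, a regulatory V1 subunit, had 0.01 and 0.08.

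**Figure D2:**
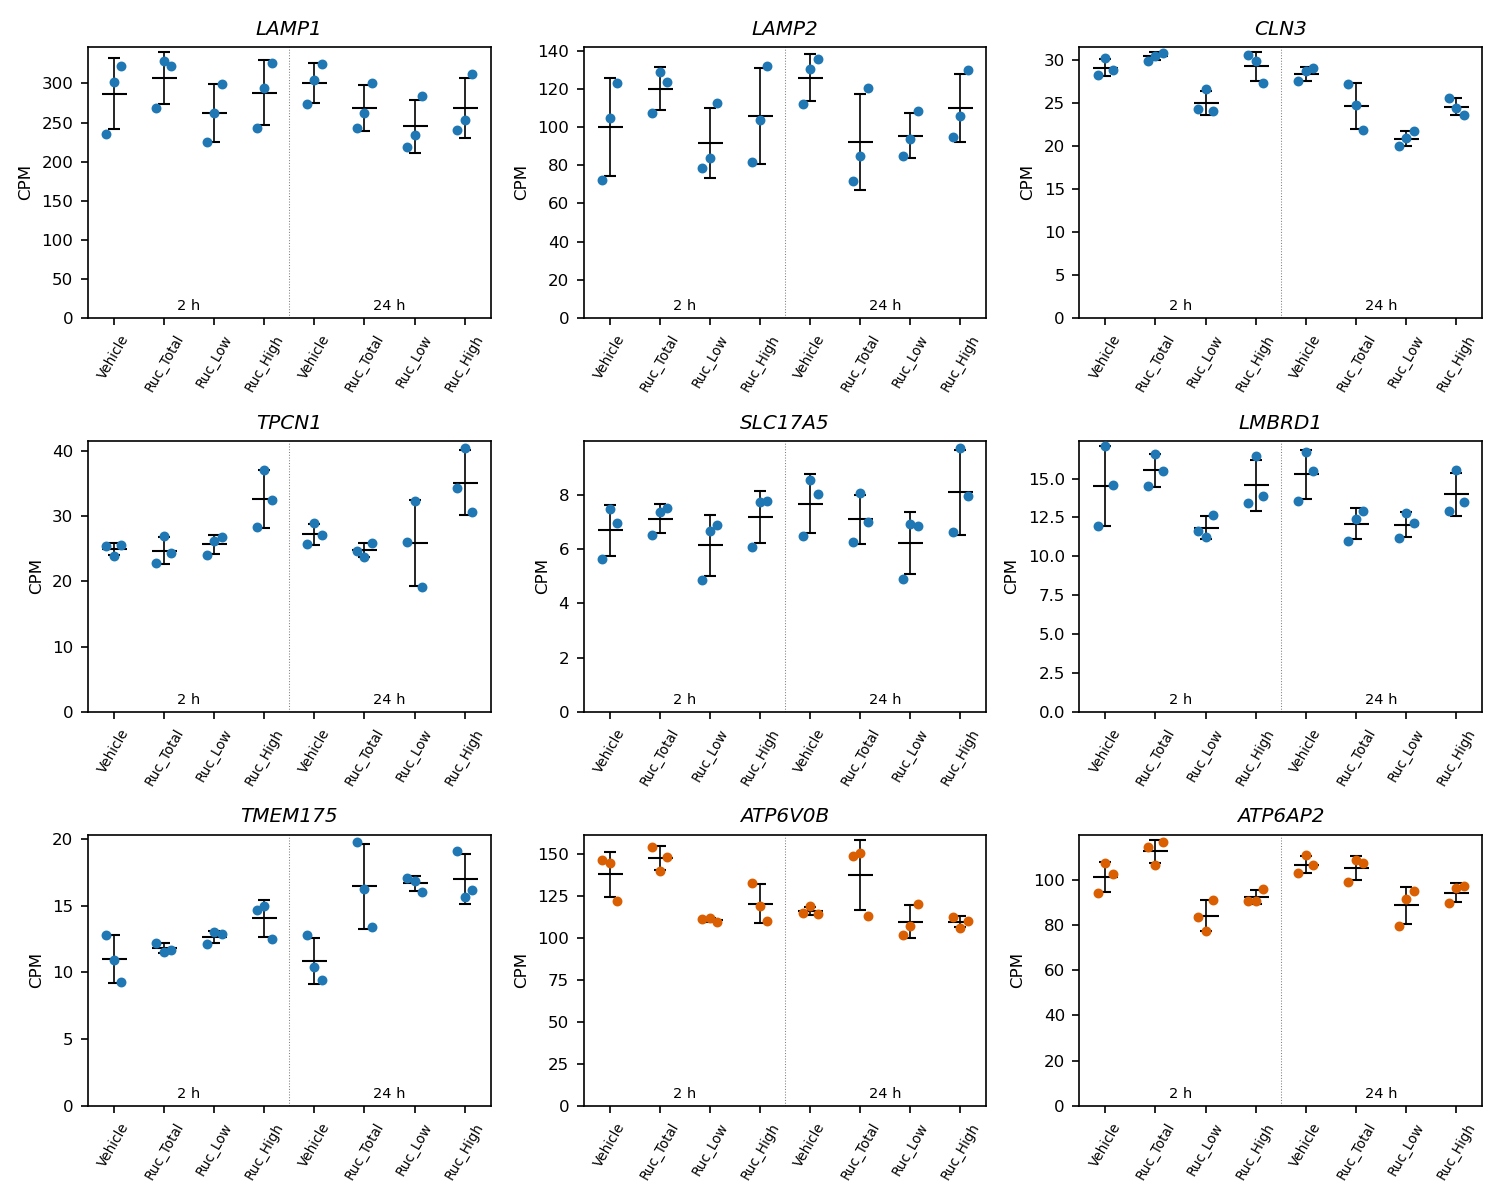
CPM of 9 member genes in every summed sample, by group and time, with points for the 3 replicates, a bar for the mean and whiskers for the SD. CLN3 shows Ruc_High above Ruc_Low at both times without overlap, and TMEM175 shows Ruc_Total above Vehicle at 24 h.

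When transcript length was added to the replicate block as a covariate, 3 members passed the test. ATP6V0E1 was called at 2 h (log2 fold change 0.26, edgeR adjusted p = 0.036), where 0.765% of all genes were called. SLC17A5 (0.40, adjusted p = 0.020) and CLN3 (0.25, adjusted p = 0.049) were called by edgeR at 24 h, where 1.15% were. The difference of Ruc_High against Ruc_Low between the times was tested by its own interaction term. It was called for 0 of 36 members and 0% of all genes, and likewise for 0 members and 0% with the replicate block. No member had an unadjusted p under 0.05 in it, and DESeq2 called none.

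Summed over the 20 membrane proteins, Ruc_Low held 1919, 2170 and 2063 CPM at 2 h and Ruc_High held 2281, 2297 and 2238 CPM. At 24 h the sums were 1620, 1891 and 1902 CPM in Ruc_Low and 1859, 2071 and 1983 CPM in Ruc_High. The sums did not overlap at 2 h and overlapped at 24 h. The 16 V-ATPase genes summed to 1141, 1042 and 1105 CPM in Ruc_Low and 1205, 1186 and 1171 CPM in Ruc_High at 2 h. At 24 h their sums were 1080, 1006 and 1110 CPM in Ruc_Low and 1098, 1101 and 1151 CPM in Ruc_High, which overlapped. LAPTM4B, CD63 and LAMP1 are the most abundant members by count and weigh most in the first sum.

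**Figure D3:**
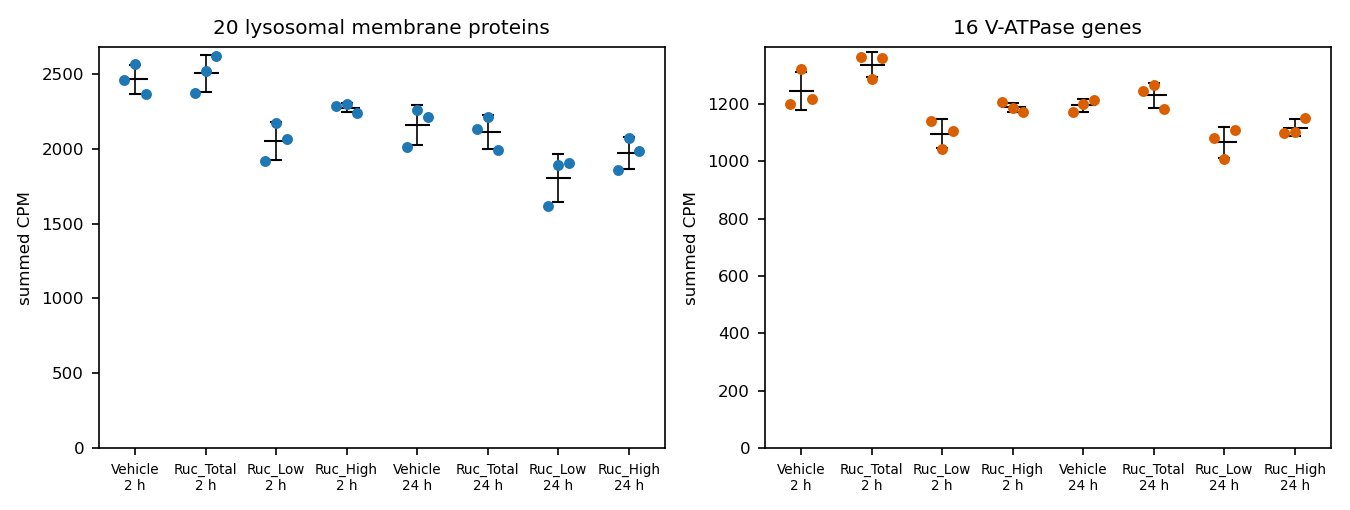
Summed CPM of the 20 membrane proteins and of the 16 V-ATPase genes in each group at 2 h and 24 h, with a point for each replicate, a bar for the mean and whiskers for the SD. The 2 h sums of Ruc_High lie above those of Ruc_Low in both lists, and the sorted groups lie below Ruc_Total at 2 h.

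Other genes of the same compartment were read in the same way. Of 37 other lysosomal membrane genes, 36 were tested, and 31 lay above 0 at 2 h (median 0.08) and 30 at 24 h (median 0.11). Of 23 other V-ATPase isoforms, assembly factors and regulators, 22 were tested, and 14 lay above 0 each time. Of 4 genes of the TFEB and TFE3 family, 3 were tested, and 0 lay above 0 at 2 h and 1 at 24 h. In edgeR 0 genes of these lists were called, with unadjusted p under 0.05 for 1, 0 and 0 genes at 2 h and 2, 2 and 2 at 24 h, and DESeq2 called 0. Fitted values of cell cycle genes also lay to one side. All 20 genes of G2 and mitosis were below 0 in Ruc_High against Ruc_Low at both times, the list's median being -0.21 (2 h) and -0.26 (24 h). Of these, 0 were called by edgeR or DESeq2, and 0 and 2 had an unadjusted p under 0.05 in edgeR. The part of the cell cycle in the values of the 36 genes was not tested.

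The next comparison asked what the drug did to unsorted cells. At 2 h, 0 of the 36 genes were called between Ruc_Total and Vehicle, against 0.0248% of all genes, and 0 with the replicate block, against 0.144%. No member had an unadjusted p under 0.05, and DESeq2 called 0. The membrane proteins had a median log2 fold change of 0.02 (10 of 20 above 0) and the V-ATPase genes one of 0.09 (12 of 16 above 0). The largest positive value was that of ATP6AP1, an accessory subunit of the pump, at 0.32 (SE 0.21).

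At 24 h, TMEM175 rose in Ruc_Total and was the only member called, against 3.35% of all genes. TMEM175 (chromosome 4, 932387 to 958656) had 12.8, 10.4 and 9.46 CPM in Vehicle and 19.8, 16.2 and 13.4 CPM in Ruc_Total. All Ruc_Total samples lay above all Vehicle samples, and the log2 fold change was 0.60 (SE 0.14, edgeR adjusted p = 0.032). At 2 h the same gene had 12.8, 10.9 and 9.26 CPM in Vehicle and 12.2, 11.5 and 11.7 CPM in Ruc_Total. The call was lost without replicate 1 or without replicate 2, and it was made in 8 of 15 settings in all. The difference between the times was not called for it, with a log2 value of 0.49 and an adjusted p of 0.196 in edgeR.

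Across the list the 24 h values pointed both ways. The membrane proteins had a median of -0.12 (8 of 20 above 0) and the V-ATPase genes one of 0.16 (9 of 16 above 0), beside 0.03 over all genes (52.6% above 0). For 5 members all Ruc_Total samples lay above all Vehicle samples, against 13.4% of all genes. For another 5 they all lay below, against 11.2%. With the replicate block, 7 members were called higher and 6 lower, against 24% of all genes. The 7 were CD63, TMEM192, OSTM1, TMEM175, ATP6V0A2, ATP6V0D1 and ATP6V1E1, and the 6 were LAMP2, SCARB2, SLC38A9, LAPTM4A, LMBRD1 and SIDT2. SLC38A9 senses arginine at the lysosome for the mTORC1 pathway, and ATP6V0A2 and ATP6V0D1 are V0 subunits.

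LAMP2 (chromosome X, 120427827 to 120469365) had 112, 131 and 136 CPM in Vehicle and 71.7, 84.8 and 120 CPM in Ruc_Total at 24 h. The difference was large in replicates 1 and 2 and small in replicate 3, so that the groups overlapped. LAPTM4A had 209, 296 and 263 CPM in Vehicle and 139, 206 and 196 CPM in Ruc_Total, with no overlap. The log2 fold changes were -0.45 (SE 0.22) for LAMP2 and -0.51 (SE 0.22) for LAPTM4A without the block. With the replicate block they were -0.48 (SE 0.10, edgeR adjusted p = 0.0047) and -0.51 (SE 0.10, edgeR adjusted p = 0.0031). With transcript length added to the block LAMP2 was not called (log2 value -0.27, edgeR adjusted p = 0.089), whereas LAPTM4A was (log2 value -0.52, edgeR adjusted p = 0.023).

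ATP6V0D1 had 41.4, 44.2 and 42.6 CPM in Vehicle and 65.7, 61.5 and 43.8 CPM in Ruc_Total at 24 h. Here too replicates 1 and 2 were far above Vehicle, and replicate 3 lay next to it and below the highest Vehicle sample. ATP6V1E1 had 97.1, 105 and 96.4 CPM in Vehicle and 114, 137 and 109 CPM in Ruc_Total, without overlap. Its log2 fold change was 0.27 (SE 0.11).

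**Figure D4:**
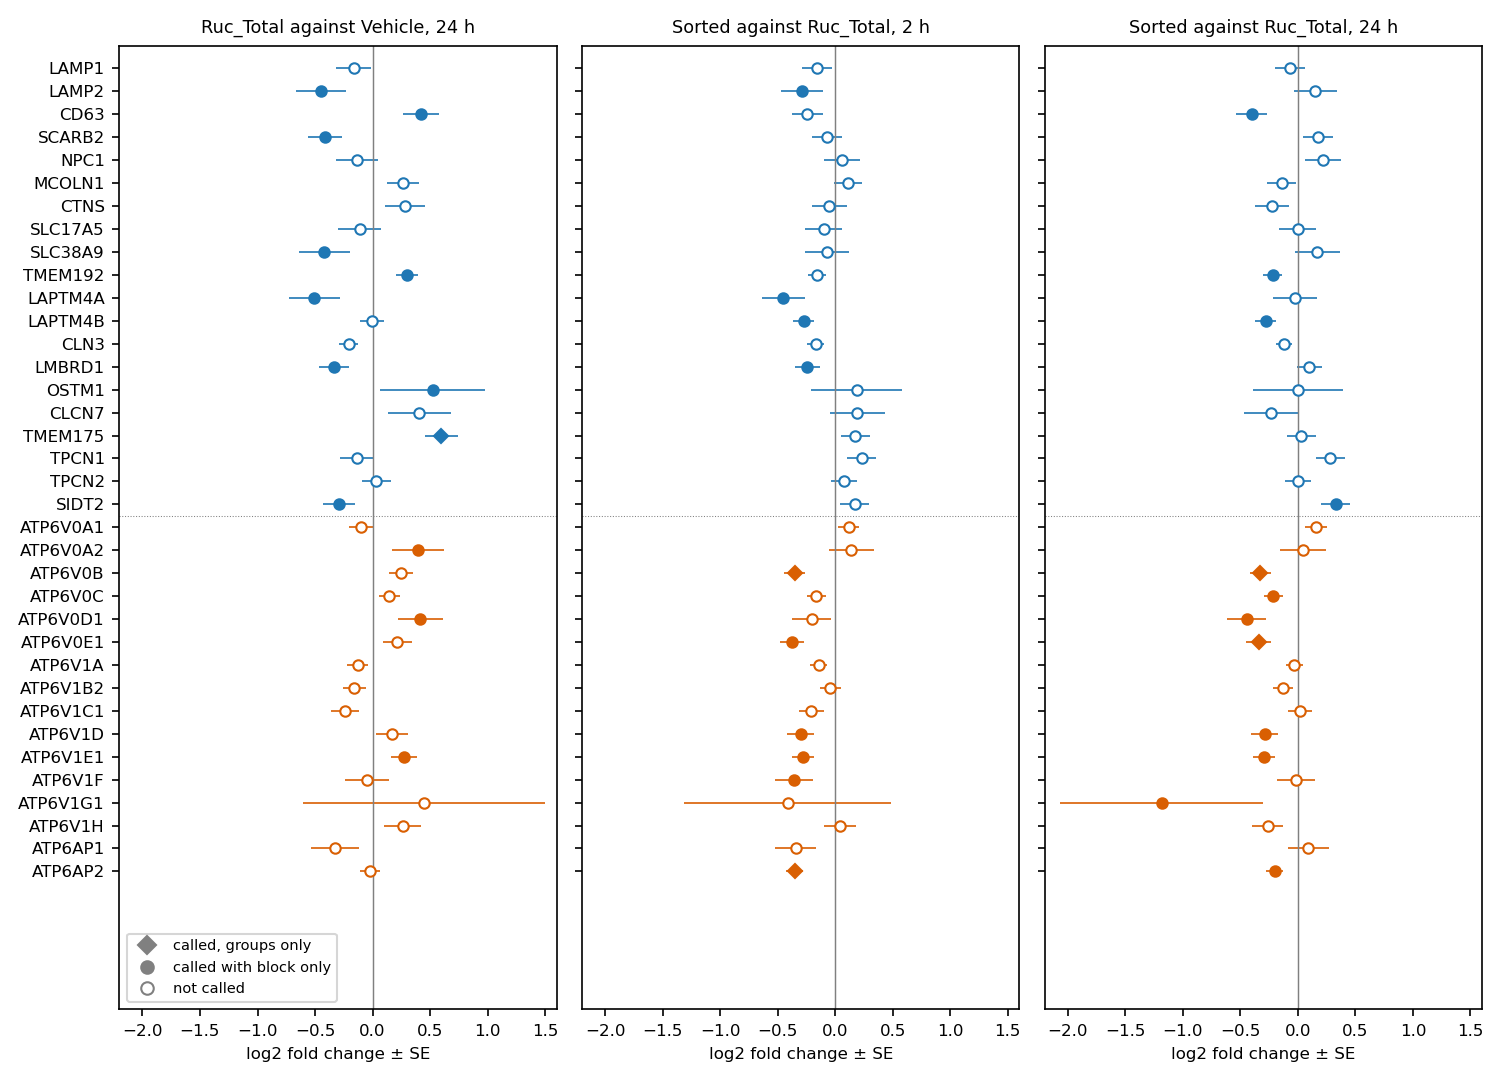
Fitted log2 fold changes with standard errors for the 36 genes in Ruc_Total against Vehicle at 24 h and in sorted against unsorted treated cells at 2 h and 24 h. Diamonds mark genes called with groups only, filled circles genes called only with the replicate block, and open circles genes not called. In the sorted comparison the called V-ATPase genes all lie below 0.

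The 24 h treatment values moved together with transcript length. The mean transcript length of the reads in Ruc_Total at 24 h was 2746, 2711 and 3229 bases in replicates 1, 2 and 3, and 3120, 3107 and 3231 bases in Vehicle. Replicates 1 and 2 of Ruc_Total were thus short against Vehicle, and replicate 3 was not. The 16 members whose reads came from transcripts under 2000 bases on average had a median log2 fold change of 0.23 (11 above 0), and the 20 members with longer transcripts had one of -0.13 (6 above 0). With the replicate block and transcript length in the fit, these medians were 0.02 and -0.10. In that fit 4 members were called, against 5.85% of all genes, with ATP6V0A2 and TMEM175 higher and LAPTM4A and CLN3 lower. Of the calls made with the block alone, those of ATP6V0A2, TMEM175 and LAPTM4A were kept and the other 10 were lost. Across the 36 genes the correlation of log length with log2 fold change was -0.24 by Pearson's r and -0.24 by Spearman's rho. Among the 20 membrane proteins alone r was -0.11 and rho -0.03, and among the 16 V-ATPase genes r was -0.33 and rho -0.30. These correlations describe genes of the same samples, which are not independent replicates.

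**Figure D5:**
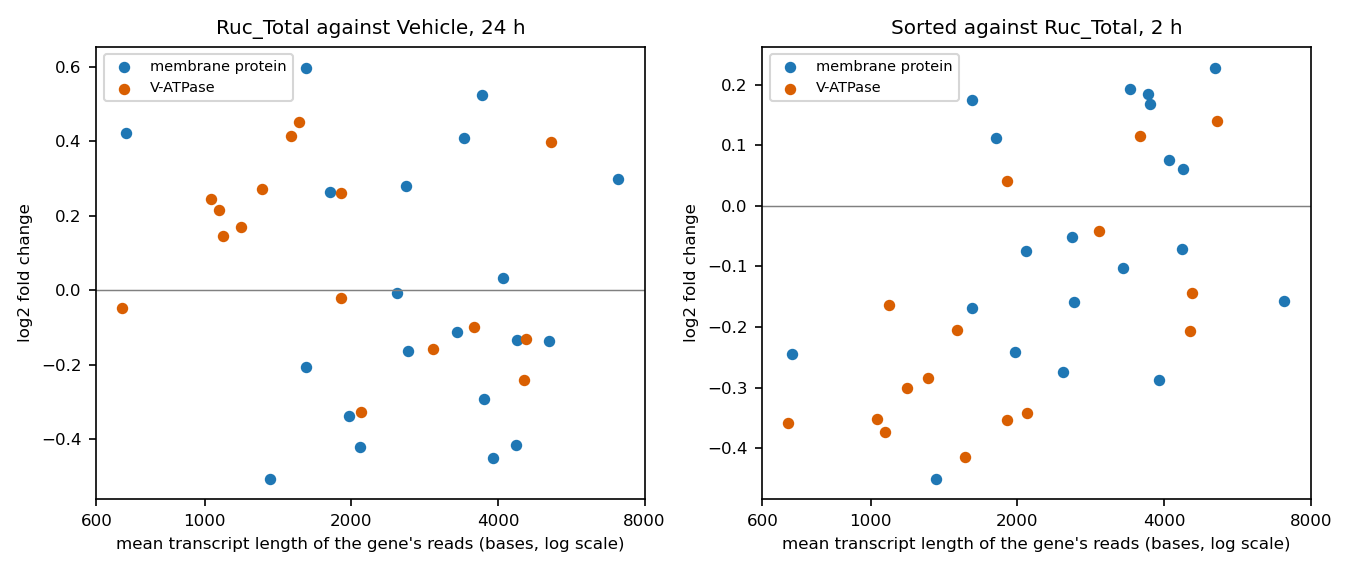
Log2 fold change against the mean transcript length of a gene's reads, on a log axis in bases, for the 36 genes in Ruc_Total against Vehicle at 24 h and in sorted against unsorted treated cells at 2 h. Points are genes, coloured by membrane protein or V-ATPase. In the 2 h sorted comparison genes with shorter transcripts tend to lie lower (Pearson's r 0.56 with the log of length).

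In the other lists, 2 of the 36 tested lysosomal membrane genes were called at 24 h, against 3.35% of all genes. SLC29A3, an equilibrative nucleoside transporter, fell by 1.22 and SLC49A4 by 0.42 on the log2 scale. Of the 20 genes of G2 and mitosis, 10 were called lower, against the same share of all genes called, with a median of -0.85 over the list. The part of cell cycle state in the treatment values of the 36 genes was not tested. The difference of the treatment effect between 24 h and 2 h was called for 0 members, against 0.139% of all genes, while 10 had an unadjusted p under 0.05 and DESeq2 called 1. In the fit with the replicate block it was called for 8, against 18.1% of all genes. The 8 were ATP6V0A2, TMEM192 and TMEM175 with values above 0 and LMBRD1, LAPTM4A, LAMP2, ATP6AP1 and SCARB2 with values below 0.

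The sorted cells were then set against the unsorted treated cells, using the mean of Ruc_Low and Ruc_High. This comparison shares its Ruc_Total samples with the treatment comparison, so that a high Ruc_Total sample raises one and lowers the other. At 2 h the V-ATPase genes had a median of -0.24 with 3 of 16 above 0, where 48.4% of all genes lay above 0. The membrane proteins had a median of -0.07, beside -0.01 over all genes. The V-ATPase median was -0.08 without the libraries whose mean transcript length was under 2800 bases, -0.11 with limma on TPM and -0.13 with an offset for effective length.

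The share of reads from mitochondrial genes also differed between these cells. At 2 h it ranged from 0.802% to 1.94% in the 9 libraries of Ruc_Total (median 0.947%), from 0.353% to 4.89% in Ruc_Low (median 3.28%) and from 0.574% to 3.96% in Ruc_High (median 2.70%). At 24 h it ranged from 0.229% to 0.739% in Ruc_Total (median 0.463%), from 0.894% to 5.99% in Ruc_Low (median 3.29%) and from 0.485% to 5.57% in Ruc_High (median 2.70%). The sorted groups thus had the higher medians at both times. Their ranges overlapped that of Ruc_Total at 2 h. At 24 h the range of Ruc_High did so, whereas every Ruc_Low library lay above every Ruc_Total library. The part of this share in the sorted comparison was not tested.

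Both members called at 2 h were V-ATPase genes that fell in sorted cells, against 2.41% of all genes called. ATP6V0B, a subunit of the rotating V0 ring (chromosome 1, 43974487 to 43978295), had 154, 140 and 148 CPM in Ruc_Total, 112, 112 and 110 CPM in Ruc_Low and 133, 119 and 110 CPM in Ruc_High. ATP6AP2 (chromosome X, 40579372 to 40606848) had 114, 107 and 117 CPM in Ruc_Total, 83.7, 77.3 and 91.0 CPM in Ruc_Low and 90.7, 90.6 and 95.8 CPM in Ruc_High. For both genes every sorted sample lay below every Ruc_Total sample. The log2 fold changes were -0.35 (SE 0.09, edgeR adjusted p = 0.042) for ATP6V0B and -0.35 (SE 0.07, edgeR adjusted p = 0.018) for ATP6AP2. Neither was called when any 1 of the 3 replicates was left out. With the replicate block 10 members were called, all lower, against 14.9% of all genes.

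At 24 h the V-ATPase genes had a median of -0.21 with 4 of 16 above 0 (-0.08 with limma on TPM), and the membrane proteins one of 0.00. ATP6V0B fell again, by 0.33 on the log2 scale (SE 0.09, edgeR adjusted p = 0.029), and ATP6V0E1 fell by 0.34 (SE 0.11, edgeR adjusted p = 0.047), against 9.47% of all genes called. For ATP6V0B the drop was seen in replicates 1 and 2, with 149 and 151 CPM in Ruc_Total against 102 and 107 CPM in Ruc_Low. Replicate 3 had 113 CPM in Ruc_Total and 121 CPM in Ruc_Low, so it did not share the drop. Without replicate 1 or without replicate 2 the count of called members was 0, and without replicate 3 it was 6. Without the libraries under 2800 bases neither ATP6V0B nor ATP6V0E1 was called, and the 2 calls were ATP6V0A1, higher, and ATP6AP2, lower, against 8.42% of all genes. Adding the replicate block gave 12 calls, of which SIDT2 was the only one higher, against 24.7% of all genes.

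In this comparison genes with shorter transcripts tended to lie lower, while the mean transcript length of the samples did not shift one way at 2 h. That mean was 2758, 2982 and 2890 bases in Ruc_Total, 2912, 2810 and 3082 bases in Ruc_Low, and 2736, 2930 and 3105 bases in Ruc_High. Single libraries were shorter. Replicates 1, 2 and 3 of Ruc_Total at 2 h held a library of 2255, 2530 and 2313 bases. The shortest library was 2351 bases in Ruc_Low and 2594 bases in Ruc_High. Across the 36 genes the correlation of log length with log2 fold change was 0.56 by Pearson's r and 0.60 by Spearman's rho at 2 h, and 0.48 and 0.61 at 24 h. ATP6V0B, ATP6V0E1 and ATP6AP2 have mean transcript lengths of 1030, 1070 and 1901 bases. With transcript length and the replicate block in the fit, the 2 h values were -0.31 for ATP6V0B and -0.34 for ATP6AP2, close to those without. When the libraries under 2800 bases were left out, neither gene was called at 2 h, and the V-ATPase median was -0.08. The part of transcript length in these calls was not tested further. The corresponding correlations in Ruc_High against Ruc_Low were -0.19 and -0.23 at 2 h and 0.19 and 0.14 at 24 h. Of the other lists at 24 h, ATP6V1C2, an isoform of a V1 subunit, rose by a log2 value of 0.74 and NCOA7, an interactor of the pump, by 0.60. ATP6V0E2 fell by 0.62 and TMEM9B fell by 0.30, all among the 22 tested V-ATPase genes outside the list. Of the 36 other lysosomal membrane genes, CLCN6 (0.79) and TMEM63A (0.25) rose and MFSD12 fell by 0.46. Over all genes, 9.47% were called in this comparison at 24 h.

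Between 2 h and 24 h within a group, no member was called in any of the 4 groups. The shares of all genes called were 0.0248% in Vehicle, 1.92% in Ruc_Total, 0.278% in Ruc_Low and 0.224% in Ruc_High. Unadjusted p-values under 0.05 were found for 8, 5, 4 and 3 members in these groups, and DESeq2 called 1, 3, 2 and 2. The counts with the replicate block were 5 in Vehicle (9.42% of all genes), 7 in Ruc_Total (12.3%), 1 in Ruc_Low (2.49%) and 1 in Ruc_High (2.81%).

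LAPTM4B was called lower at 24 h with the block in all 4 groups. It had 1072, 1037 and 928 CPM in Vehicle at 2 h and 732, 785 and 786 CPM at 24 h. In Ruc_Total it had 959, 970 and 1057 CPM at 2 h and 821, 798 and 672 CPM at 24 h. No 24 h sample of either group reached its 2 h samples, and the same held in the sorted groups. The log2 fold changes were -0.40 in Vehicle, -0.38 in Ruc_Total, -0.38 in Ruc_Low and -0.40 in Ruc_High, lower in 3 of 3 pairs each. Transcript length moved with time in Vehicle, where its mean was 2729, 2747 and 3078 bases at 2 h and 3120, 3107 and 3231 bases at 24 h. With transcript length added to the block no member was called in Vehicle, against 0.0298% of all genes, and LAPTM4B had a log2 value of -0.17 there (edgeR adjusted p = 0.651). In the same fit LAPTM4B stayed called in Ruc_Total (-0.37, 23.6% of all genes called), Ruc_Low (-0.32, 5.13%) and Ruc_High (-0.29, 3.89%). The other members called with the block alone in Vehicle were LAMP2, SCARB2, SLC38A9 and ATP6V1A, all higher at 24 h. In Ruc_Total, ATP6V0A2 and TMEM175 were called higher by the block alone and LMBRD1, LAPTM4A, LAMP2 and CLN3 lower. TFE3, outside the list, rose in Ruc_Total between the times by a log2 value of 0.38 (edgeR adjusted p = 0.020).

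ATP6V1G1, a subunit of the V1 stalk, stood apart from the rest. Its level ranged from 0.355 to 12.3 CPM over the 24 samples, a 34.6-fold range, and replicate 3 was its highest in every group. Over the 16 V-ATPase genes the median range was 1.58-fold. A single transcript carried all of the reads matched to it. Its values are therefore uncertain and no direction of this gene is drawn from them. It is still included in the counts, medians and sums of the lists above. Among these is its call, lower with the replicate block, in sorted against unsorted cells at 24 h. Whether further reads of this gene lay on unmatched transcripts was not tested.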

How the data were processed

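Rucaparib-treated and Vehicle PEO1 cells were profiled by RNA-seq in 72 libraries. The authors trimmed reads with cutadapt 4.7 and quantified transcripts with Salmon (GRCh38, per the submitters' processing notes), and they deposited estimated counts per transcript for each library. TPM values, which the authors deposited beside these counts, are scaled per transcript length by Salmon and were used for levels only. The study's own tests used DESeq2 1.44.0, and none of its results are used here.

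Of 257369 transcripts, 194437 were assigned to genes by GENCODE 29 and 11676 by its symbol table, and 51256 stayed unmatched. Counts were summed per gene, then over the 3 libraries of each replicate, and rounded to whole numbers. No pair of libraries held identical values. Libraries of one replicate number still differed beyond sampling noise (chi-square per degree of freedom at least 5.85) and were summed as one replicate. Genes passing filterByExpr were normalised by TMM and tested in R 4.3.3 with edgeR 4.0.16 (quasi-likelihood, all 8 groups in one fit, Benjamini-Hochberg adjusted p under 0.05). Standard errors were taken from the log2 fold change and its F statistic. DESeq2 1.42.0, limma 3.58.1 on log2(TPM + 1) and other filters, scalings and sample sets were run as alternatives. The scripts were tested on simulated data. Counting error is small at 17391033 to 38899905 reads per library, and p-values measure the spread between replicates of a single cell line, which may be technical.

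The reported tests had the groups as their only terms, and a fit with the replicate number as a block was an alternative, given beside a result where it changed a call. The numbers were taken to pair the samples because the study states that sorting replicates were made on different days. Samples sharing a number deviated together, with a median correlation of deviations from the group means of 0.29 (lowest -0.065), against -0.12 for different numbers. All 36 genes were fitted and are shown in the figures. TPCN2, ATP6V1B2, ATP6V1C1, ATP6V1D and ATP6V1F are shown only there, and the text does not describe them singly. Of every other list at most 4 called genes per direction were named. The genes and lists were chosen with earlier results of these data known. Promoter sequences came from RefSeq (GRCh38.p14), and no coordinates were converted.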

Additional observations from a re-analysis of the deposited data

Results flagged for a closer look

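The summed CPM of the 16 V-ATPase genes was examined in single libraries, with both ends of each list in each group of 9 libraries, 32 ends in all. Chance alone would mark about 1 in 20 groups. In Vehicle at 2 h, a library of replicate 1 stood apart from the other libraries with 1003.5 CPM, while the next lowest had 1169.73 CPM and the highest 1308.35 CPM. In Ruc_Low at 2 h, a library of replicate 2 stood apart with 842.879 CPM, while the next lowest had 1075.6 CPM and the highest 1166.83 CPM. These were the shallowest libraries of the series, with 22092472 and 17391033 reads, and their mean transcript lengths were 2627 and 2351 bases. They also detected the most genes of all libraries, 26770 and 32209. Why they stood apart was not tested.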

How the results depend on the processing

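The values of the 36 members were recomputed in the treatment, fluorescence and sorted comparisons at both times. None changed sign while called, 2753 stayed on the same side of the threshold and, if uncalled, moved by less than the spread between replicates, 155 uncalled values moved by more, 78 became called and 38 lost a call. In Ruc_High against Ruc_Low at 2 h and 24 h, 1 and 2 became called and none lost a call. The medians of Ruc_High over Ruc_Low stayed above 0 in all 15 settings, between 0.08 and 0.16 at 2 h and 0.10 and 0.18 at 24 h over the 36 genes. For values that moved the cause was not tested. Depth and 3 replicates limit which small differences can be detected, and 18 of 72 libraries had mean transcript lengths under 2800 bases.

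The counts of called members below stand for Ruc_Total against Vehicle at 24 h (1 as reported), sorted against unsorted cells at 2 h (2) and at 24 h (2), in this order. They were 13, 10 and 12 with the replicate block, 4, 16 and 7 with the replicate block and transcript length, and 0, 0 and 0 with no filter on low counts and with only the groups compared. They were 0, 0 and 1 with an offset for effective length and with limma on TPM. DESeq2 gave 5 and 8 at 24 h, and 3 at 2 h. Leaving out the libraries under 2800 bases gave 0 and 0 in the first of these and at 2 h, and 2 at 24 h that were ATP6V0A1 and ATP6AP2 in place of ATP6V0B and ATP6V0E1. DESeq2 size factors gave 1 in the sorted 2 h comparison, a minimum of 1 CPM gave 1 at both times, and leaving out 2 shallow libraries gave 5 at 24 h. Leaving out each replicate gave 0 to 4, 0 to 0 and 0 to 6.

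For time within Vehicle, Ruc_Total, Ruc_Low and Ruc_High (0 each as reported), the replicate block gave 5, 7, 1 and 1 and DESeq2 1, 3, 2 and 2. Block and length together gave 11, 3 and 1 in the treated groups, and leaving out short libraries gave 1 in Ruc_Total and in Ruc_Low. In Ruc_Total the shallow libraries' removal gave 2, and leaving out each replicate gave 0 to 1. The difference of the treatment effect between times had 8 calls with the replicate block, 1 with DESeq2, 4 with block and length, and 0 to 2 without single replicates. Ruc_High against Ruc_Low gave 1 call at 2 h and 2 at 24 h with block and length. The replicate block changed no other count of calls.

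At 24 h the membrane median of Ruc_High over Ruc_Low was 0.20 with limma, and the V-ATPase median ranged from 0.033 to 0.11 without single replicates. For Ruc_Total against Vehicle, the membrane medians were -0.044 at 2 h with the length offset and -0.19 at 24 h with limma. The V-ATPase medians were -0.037 at 2 h and 0.055 at 24 h without short libraries, and at 24 h -0.034 with limma and -0.0073 with block and length. In the sorted comparison at 2 h (-0.24 as reported) the V-ATPase median was -0.22 with DESeq2, with its size factors and with no filter, -0.21 with a minimum of 1 CPM, -0.26 with the replicate block and with block and length, -0.20 with only the groups compared, -0.13 with the length offset, -0.11 with limma and -0.084 without short libraries, and it ranged from -0.24 to -0.20 without single replicates. The membrane median there was 0.0009 with limma and ranged from -0.10 to 0.0094 without single replicates. At 24 h the membrane median was -0.076 with the length offset and the V-ATPase median was -0.082 with limma.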
